A study of Mus musculus with 6 samples.

Results

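The 4 CDC-like kinase genes of the mouse, Clk1, Clk2, Clk3 and Clk4, were read together with Rsrp1, which encodes a protein rich in arginine and serine. They are 5 of the 55421 genes in the table. They were matched by gene symbol, and the set was put together because Clk1, Clk4 and Rsrp1 were higher in SFR KO cells in these data. The difference between the genotypes in these 5 genes is therefore given as a description, with no test. All 5 passed the minimum of 10 on the mean normalized count, as did 13562 genes in all.

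The RNA came from germinal centre B cells of the spleen, sorted as GFP+ cells from C57BL/6 mice that carry a GFP reporter. All mice had been immunised with NP(18)OVA in alum, and spleens were taken on day 9. The 3 wildtype and the 3 SFR KO libraries share strain, reporter, sort and immunisation. SFR KO mice lack a stretch that starts in intron 1 of Cd244 and stops in exon 8 of Slamf6, and with it the SLAM family receptors Cd48, Cd84, Cd244, Ly9, Slamf1, Slamf6 and Slamf7. The labels name no Cre or promoter that would limit the deletion to a cell type, and ages are not stated. Samples carry numbers, but no label ties each of them to its own mouse; p-values therefore reflect the spread among these samples, which may be technical.

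CLK proteins are dual-specificity kinases of the cell nucleus. They phosphorylate the arginine-serine stretches of SR proteins, a family of splicing factors, and so release them from storage in nuclear speckles to the sites of splicing. Transcripts of Clk1 and Clk4 are known for introns that are kept in the nucleus until splicing is completed later, and the amount of active kinase feeds back on that step.

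Libraries held 28269310 to 33053024 reads assigned to genes. The 7 deleted genes together had 10295 to 22247 reads in a wildtype library and 5 to 17 reads in an SFR KO library. Of 10 germinal centre B cell markers, limma called none at an adjusted p under 0.05, and edgeR and DESeq2 called none. Of these markers, 1 had an unadjusted p under 0.05, against 16.1% of all genes tested. SFR KO 1 stood apart from the other 2 libraries of its group: the chi-square per gene of the read counts was 16.9 and 24.5 for its pairs, against 6.11 between SFR KO 2 and SFR KO 3. Pairs of wildtype libraries lay between these, at 13.53, 12.98 and 12.48.

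RefSeq promoter sequences on GRCm38.p6 were found for Clk2, Clk3, Clk4 and Rsrp1. Bases are counted from the RefSeq start, where base 0 is the first of the transcript. Each stretch below is the longest in the 250 bases before the start that no annotated exon covers, on the plus strand, 5′ to 3′. The stretches are shown because Clk4 and Rsrp1 were higher in SFR KO libraries and Clk2 was not. For Clk3 none is shown, because exons cover all 250 bases. Capitals mark the cAMP response element TGACGTCA and the NRF1 core GCGCATGC.
Clk4, 67 bases at chr11:51263047-51263113: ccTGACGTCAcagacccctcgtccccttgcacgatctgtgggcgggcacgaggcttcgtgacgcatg
Rsrp1, 217 bases at chr4:134923375-134923591: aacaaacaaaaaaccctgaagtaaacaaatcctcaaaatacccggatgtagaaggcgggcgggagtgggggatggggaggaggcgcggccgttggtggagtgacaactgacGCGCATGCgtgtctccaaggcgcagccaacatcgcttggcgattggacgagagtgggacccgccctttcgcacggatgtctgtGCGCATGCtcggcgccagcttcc
Clk2, 250 bases at chr3:89164545-89164794: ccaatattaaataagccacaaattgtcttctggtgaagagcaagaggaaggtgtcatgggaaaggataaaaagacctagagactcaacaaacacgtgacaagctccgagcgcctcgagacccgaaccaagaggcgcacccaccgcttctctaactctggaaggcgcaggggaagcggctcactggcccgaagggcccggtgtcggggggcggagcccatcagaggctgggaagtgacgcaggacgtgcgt

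Motifs were searched on both strands in windows of 250 bases before to 50 bases after the start. The 7 motifs were picked after these promoters had been seen. TGACGTCA was found in Clk4, at bases -65 to -58, and in 1.79% of 32817 promoters. Its shortened form TGACGTC, which every TGACGTCA also holds, was found in Clk4 and Rsrp1 and in 3.21% of promoters. The Rsrp1 match, at -19 to -13, lies in an annotated exon outside the stretch shown. GCGCATGC was found in both of these genes and in 2.71% of promoters. Rsrp1 held it at -139 to -132 and at -56 to -49, and Clk4 at -5 to 2 on the minus strand, across the end of the stretch shown. Clk2 and Clk3 held neither motif, and Clk1, which was also higher in SFR KO, had no promoter entry. Since the motifs were picked on these promoters, nothing is read from which genes hold them. Clk2 held the E-box CACGTG at -159 to -154, found in 7.15% of promoters. CCAAT was found in Clk2 and Rsrp1 and in 37.4% of promoters, GGGCGG in all 4 promoters and in 35.6%, and TATAAA in none of the 4 and in 13.6%.

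Rsrp1 (ENSMUSG00000037266, chromosome 4, 134923592 to 134927671, plus strand, GRCm38) showed the widest difference of the 5 genes. Its normalized counts were 2460.2, 1655.5 and 2581.9 in wildtype 1, 2 and 3, while SFR KO 1, 2 and 3 held 5400.7, 6832.6 and 6212.3. Every SFR KO library lay above every wildtype library, and wildtype 2 stood below the other wildtype libraries. The means were 2232.5 ± 503.4 and 6148.5 ± 718.1 (SD over 3 libraries), a log2 difference of 1.48 ± 0.15 (SE), or 2.79-fold. Without wildtype 2 the log2 difference was 1.28. In the authors' deposited table, the log2 fold change of Rsrp1 is 1.46 with a standard error of 0.211. In bulk RNA of sorted cells, a different mix of cells and a different amount of RNA per cell cannot be told apart, which holds for every value below.

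Clk1 (ENSMUSG00000026034, chromosome 1, 58410189 to 58424066, minus strand) encodes a kinase that phosphorylates SR proteins. It stood at 1931.5, 1755.0 and 1887.2 normalized counts in the wildtype libraries and at 2850.6, 3525.2 and 3280.8 in the SFR KO libraries. The groups were 919.1 normalized counts apart at their nearest values, against an SD of 91.8 in wildtype and 342 in SFR KO. The log2 difference was 0.79 ± 0.08, or 1.73-fold.

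Clk4 (ENSMUSG00000020385, chromosome 11, 51261730 to 51281766, plus strand) encodes the kinase nearest to Clk1 in sequence among these genes. Its normalized counts were 819.4, 731.3 and 752.6 in the wildtype libraries; those of the SFR KO libraries were 1080.9, 1318.1 and 1252.2. Its mean over the 6 libraries was the lowest of the 5 genes, and again no wildtype library reached an SFR KO library. The log2 difference was 0.66 ± 0.09, or 1.58-fold.

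The other CLK genes lay on the other side of 0. Clk2 (ENSMUSG00000068917, chromosome 3, 89164795 to 89176921, plus strand) stood at 1250.5, 1454.5 and 1335.7 normalized counts in the wildtype libraries and at 1127.2, 1230.6 and 1127.6 in the SFR KO libraries. Its groups did not overlap, but their nearest values were only 19.97 normalized counts apart, less than the SD of 102 in wildtype. Its log2 difference was -0.21 ± 0.08, a ratio of 0.864.

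Clk3 (ENSMUSG00000032316, chromosome 9, 57750624 to 57765860, minus strand) had overlapping groups. Its values were 2177.7, 2439.2 and 2238.6 in the wildtype libraries, then 2121.5, 2200.5 and 2050.1 in the SFR KO libraries, and its log2 difference was -0.10 ± 0.06. In 4 of the 5 genes the groups did not overlap, which was so in 21.7% of the 13562 genes tested (9.78% higher and 11.9% lower in SFR KO). Since the set was chosen on this contrast, nothing is read from that count.

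**Figure D1:**
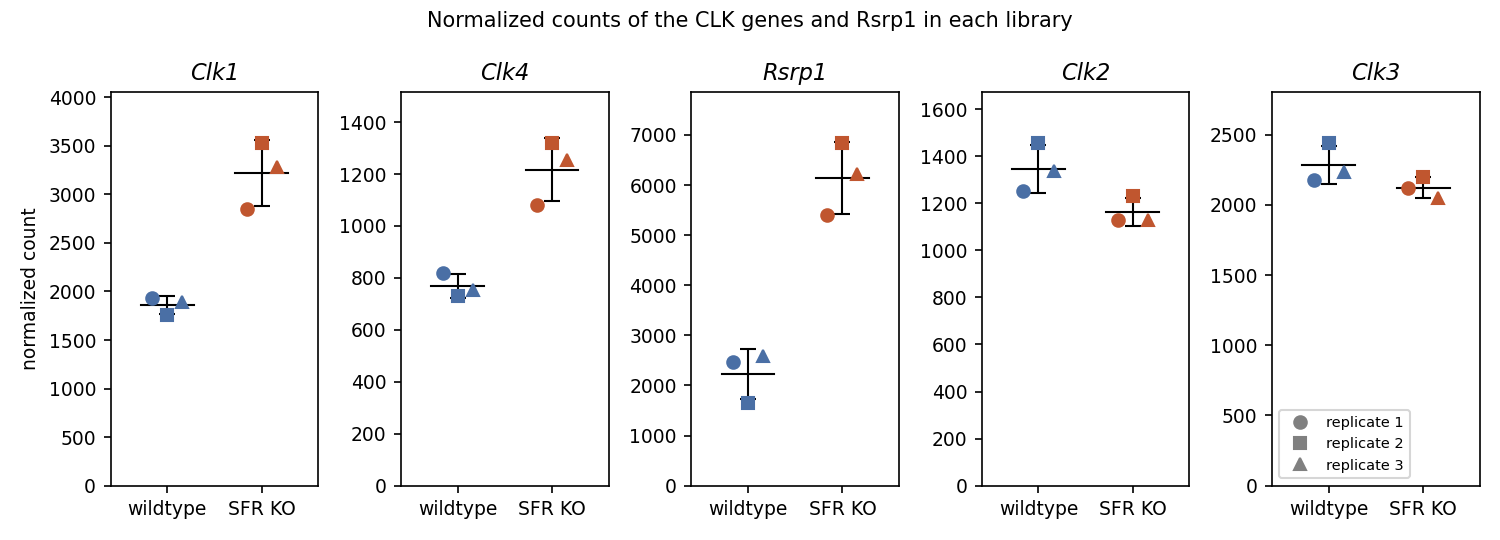
Normalized counts (vertical axes, from 0, one scale per gene) of the 5 genes in 3 wildtype and 3 SFR KO libraries, with horizontal lines at the mean and bars of 1 SD. Replicate numbers only name libraries and do not pair them. Clk1, Clk4 and Rsrp1 lie higher in every SFR KO library, Clk2 lies slightly lower, and the Clk3 groups overlap.

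The differences were set beside the choices made in processing. Over the 16 alternatives the log2 difference lay between 0.67 and 0.87 for Clk1, between 0.53 and 0.74 for Clk4 and between 1.28 and 1.6 for Rsrp1. It lay between -0.26 and -0.15 for Clk2 and between -0.14 and -0.04 for Clk3. Without SFR KO 1, which stood apart within its group, the values were 0.87 for Clk1, 0.74 for Clk4, 1.57 for Rsrp1, -0.19 for Clk2 and -0.10 for Clk3. All 5 genes kept their direction in all 16.

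Genes of low GC content tended to lie above 0, and Clk1 and Clk4 are low in GC. The longest transcript was 39.2% GC in Clk1, 38.8% in Clk4, 47.5% in Rsrp1, 52.6% in Clk3 and 55.4% in Clk2, against a median of 49.4% over the genes tested. The 536 other genes tested with a GC content from 38% to 40% had a median log2 difference of 0.105, where the median of all genes was near 0, at -0.003. After each library's trend with GC content was removed, the log2 difference was 0.67 for Clk1, 0.53 for Clk4, 1.48 for Rsrp1, -0.15 for Clk2 and -0.07 for Clk3. With the GC content of the longest protein-coding transcript, it was 0.70 for Clk1 and 0.62 for Clk4.

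**Figure D2:**
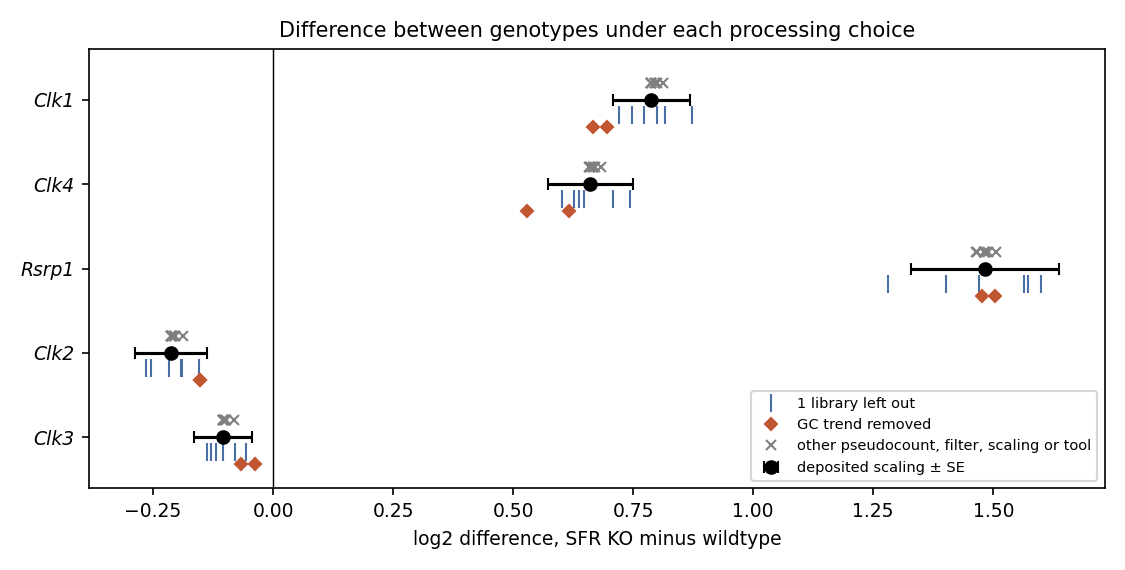
Log2 difference, SFR KO minus wildtype (horizontal axis), of each gene with the deposited scaling (black, bars of 1 SE), with 1 library left out (ticks), with the GC trend removed (diamonds) and with other pseudocounts, filters, scalings or tools (crosses). Rsrp1 is moved most by leaving out a library, down to 1.28, and Clk4 most by the GC trend, to 0.53.

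The 3 genes that were higher in SFR KO shared the order of the SFR KO libraries, and in wildtype they shared only the lowest library. Clk1, Clk4 and Rsrp1 all had their lowest SFR KO value in SFR KO 1 and their highest in SFR KO 2. For SFR KO 1 the deviation from the group's mean log2 value was -0.17 in Clk1, -0.17 in Clk4 and -0.18 in Rsrp1. All 3 genes had their lowest wildtype value in wildtype 2, with deviations of -0.08 in Clk1, -0.07 in Clk4 and -0.40 in Rsrp1. The highest wildtype value was in wildtype 1 for Clk1 and Clk4 and in wildtype 3 for Rsrp1. Clk2 and Clk3 instead had their highest wildtype value in wildtype 2, at 0.11 and 0.10. The order of the SFR KO libraries was not particular to the genes that were higher. Clk2 had the same order, though its SFR KO 1 and SFR KO 3 were both at -0.04. Clk3 also had its highest SFR KO value in SFR KO 2, but its lowest in SFR KO 3. These are 3 libraries a group, given as a description.

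Levels of different genes were compared per kilobase of the longest annotated transcript. In wildtype libraries, Rsrp1 stood at 731.7 ± 165.0 normalized counts per kilobase, Clk3 at 553.3 ± 33.1, Clk2 at 425.2 ± 32.3, Clk1 at 381.9 ± 18.9 and Clk4 at 216.7 ± 13.0 (mean ± SD, n = 3). The library values of Rsrp1 and Clk3 overlapped, as did those of Clk2 and Clk1, while Clk4 lay below all others. In SFR KO libraries the order was Rsrp1 at 2015.3 ± 235.4, Clk1 at 661.6 ± 70.2, Clk3 at 514.3 ± 18.2, Clk2 at 366.7 ± 18.8 and Clk4 at 343.5 ± 34.6. There the values of Clk2 and Clk4 overlapped, and those of the other neighbours did not.

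Ratios taken within a library do not depend on its scaling. The level per kilobase of Clk1 over that of Clk2 was 1.01, 0.786 and 0.920 for wildtype, then 1.65, 1.86 and 1.90 for SFR KO libraries. The Clk4 to Clk2 ratio was 0.586, 0.450 and 0.504 for wildtype, then 0.857, 0.958 and 0.993 for SFR KO. Clk1 over Clk4 moved far less, from 1.76 ± 0.06 to 1.93 ± 0.02, although its groups did not overlap either. Rsrp1 over Clk1 was 2.03, 1.5 and 2.18 for wildtype, then 3.02, 3.09 and 3.02 for SFR KO, where the 3 libraries lay close together.

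The summed level of the 4 CLK genes was 1577.1 ± 35.1 normalized counts per kilobase in wildtype and 1886.2 ± 128.8 in SFR KO libraries. Clk1 made up 24.2% ± 1.7 of this sum in wildtype and 35.0% ± 1.5 in SFR KO. Clk4 went from 13.8% ± 1.1 to 18.2% ± 0.8. Clk2 went from 26.9% ± 1.5 to 19.5% ± 0.7, and Clk3, the largest share in wildtype, from 35.1% ± 1.3 to 27.3% ± 1.6. The order depends on the length used: over the longest protein-coding transcript, Clk1 over Clk2 was 1.66 in wildtype and 3.32 in SFR KO, and Clk1 held the largest share, 34.9% and 47.0%.

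**Figure D3:**
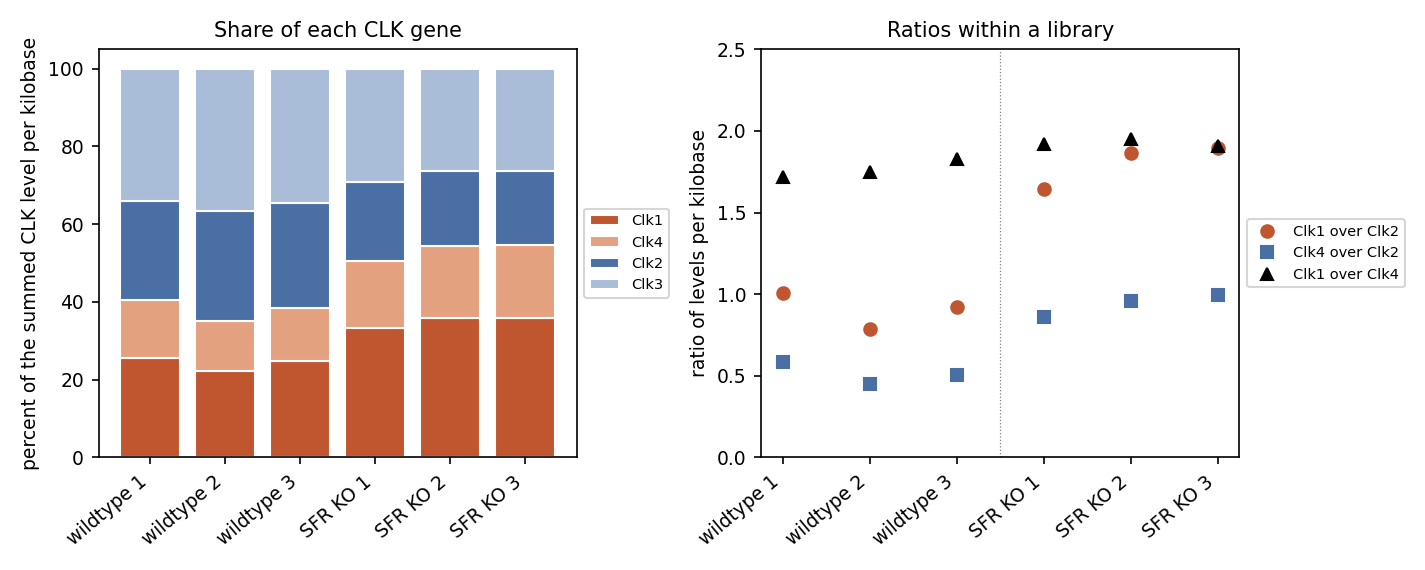
Left, percent of the summed CLK level per kilobase held by each CLK gene in each library (stacked bars). Right, ratios of levels per kilobase within each library; the dotted line parts wildtype from SFR KO. Clk1 over Clk2 lies at or below 1.01 in wildtype and at or above 1.65 in SFR KO, while Clk1 over Clk4 lies between 1.72 and 1.95 throughout.

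The counts are per gene, so spliced transcripts and transcripts that keep an intron were not told apart. In the GENCODE M21 annotation, the longest transcript of each of the 5 genes is a retained intron model, which holds for 14.7% of the 11411 protein-coding genes tested. Clk1 has 7 retained intron models among 13 transcripts, Clk4 has 7 among 14, Clk2 has 4 among 11, Clk3 has 4 among 9 and Rsrp1 has 1 among 8. Models that end in nonsense-mediated decay, which destroys messages with an early stop, number 3 in Clk4, 2 in Clk1 and 1 each in Clk2 and Clk3, and Rsrp1 has none. Over all these protein-coding genes, the 6844 genes with a retained intron model had a median log2 difference of -0.01, and those without one had a median of -0.004. The 288 genes with at least 7 such models, Clk1 and Clk4 among them, had a median of -0.053, against -0.01 for the rest.

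Reads shared between relatives were checked on sequence. The longest identical runs were sought in the coding sequences only, and runs of 50 bases only in the longest transcript of each gene. Shorter runs shared outside the coding sequences were not sought. The coding sequences of Clk1 and Clk4 are 74.3% identical over 1435 aligned bases, against 62.3% to 66.6% for the other pairs of CLK genes. Their longest identical run, shown because it is the longest stretch on which a read could fit both, is 34 bases from base 419 of the Clk1 and base 416 of the Clk4 coding sequence: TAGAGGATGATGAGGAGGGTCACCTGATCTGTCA
No run of 50 bases from the longest transcript of Clk1, Clk2, Clk4 or Rsrp1 occurred in a transcript of another gene. In Clk3, 463 such runs (11.3%) also occurred in Edc3 or in the gene model AC157214.1.

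Genes beside or over the members were read in the same libraries. Edc3, a decapping factor gene on the opposite strand, overlaps Clk3 by 1876 bases, and the use of strand in counting is not stated, which leaves the Clk3 values uncertain to that extent. Its own log2 difference was 0.05 ± 0.06. BC049762, opposite to Clk4 and overlapping it by 1317 bases, had only 5.1 to 18.6 normalized counts a library. None of the nearest tested neighbours was called by limma: Bzw1 beside Clk1 had a log2 difference of 0.12 ± 0.05 (adjusted p = 0.278) and Ppil3 one of -0.03 ± 0.08 (adjusted p = 0.895). Tmem50a and Syf2, on either side of Rsrp1, had log2 differences of 0.05 ± 0.07 and 0.04 ± 0.06, and Scamp3, 552 bases from Clk2, one of 0.00 ± 0.06.

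The genes with the most similar pattern were found by the root mean square difference between log2 values, each gene centred on its mean over the 6 libraries. Such a pattern holds the difference between the genotypes, on which the set was chosen. A near rank therefore largely restates a similar difference, and nothing is read from the ranks. Among 8658 genes of at least 200 normalized counts on average, Clk4 was the nearest to Clk1 and Clk1 the nearest to Clk4, at 0.07. Next to Clk1 came Clec2i at 0.10, Smad1 at 0.12 and Alcam at 0.13, with log2 differences of 0.672, 0.749 and 0.695. Clec2i, Klf10 and Phf11b followed for Clk4, at 0.09, 0.10 and 0.10. The nearest to Rsrp1 were farther off, with Dnm3 at 0.32, Tgfb3 at 0.33, Nrgn at 0.34 and Igkv3-2 at 0.36, and Clk1 came at rank 6 and Clk4 at rank 12. Clk2 and Clk3 lay far from these 3 genes, with Clk2 at rank 7723 of 8658 for Clk1.

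SR proteins are the substrates of the CLK kinases, and no SR protein gene was called. The counts are of RNA and do not show how far these proteins are phosphorylated or where they lie. Small differences in RNA can also be missed with 3 libraries a group. Of 12 tested genes, limma called none at an adjusted p under 0.05, where it called 63 of the 13562 genes, or 0.465%, with 0.155% higher and 0.31% lower in SFR KO. Leaving out 1 library moved the 63 to between 11, without SFR KO 2, and 480, without SFR KO 1. At an unadjusted p under 0.05 there were 2 of 12, against 16.1% of all genes, and edgeR and DESeq2 called none. The median log2 difference was 0.07, and 0.03 after removal of the GC trend, and 9 of the 12 lay above 0. Srsf1, the founding member, stood at 21208.7 ± 368.7 normalized counts in wildtype and 23239.8 ± 964.5 in SFR KO, a log2 difference of 0.13 ± 0.05 (limma adjusted p = 0.239). Srsf3 had a log2 difference of 0.13 ± 0.05, Srsf2 one of 0.10 ± 0.05 and Srsf4 one of -0.13 ± 0.07. Single values ran from -0.13 to 0.13, where the median size of the log2 difference over all genes was 0.12.

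Other kinases related to the CLKs or acting on splicing factors include the SRPK, DYRK and HIPK families. The 15 tested gave 0 calls with limma, edgeR and DESeq2. At an unadjusted p under 0.05 there were 2 of 15, against 16.1% of all genes. The median log2 difference of the 15 was -0.04 and their range -0.33 to 0.34. The most abundant were Hipk1 at 0.03 ± 0.07, Hipk3 at -0.04 ± 0.06 and Dyrk1a, another kinase of splicing factors, at 0.05 ± 0.07.

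Proteins of the nuclear speckle and other arginine-serine rich proteins gave 0 of 26 calls with limma and edgeR. Among these 26, 8 had an unadjusted p under 0.05, against 16.1% of all genes. DESeq2, which called 4.53% of the genes it tested, called 2, named here after their values were seen: Rbm25 at 0.22 ± 0.05 (DESeq2 adjusted p = 0.00736) and Acin1 at -0.21 ± 0.06 (DESeq2 adjusted p = 0.0394). The list's median was 0.02. The speckle scaffold gene Son stood at 21919.6 ± 907.2 and 22018.5 ± 511.7 normalized counts, a log2 difference of 0.01 ± 0.05, and Srrm2 had one of -0.20 ± 0.07.

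Further genes known for regulated intron retention were read as a list of 8, chosen with earlier results of these data known. These 8 need not stand for all genes with such introns. Of the 8, 7 had a log2 difference above 0 (all genes: 49.3%), and 6 had an unadjusted p under 0.05 (all genes: 16.1%). The median was 0.18, and 0.12 after removal of the GC trend. limma and edgeR called none, and limma called 2 without SFR KO 1 and 1 without wildtype 2. DESeq2, which called 4.53% of the genes it tested, called 3, among them Ogt and Hnrnpdl, named after their values were seen. Ogt, the gene of the enzyme that attaches N-acetylglucosamine to nuclear and cytoplasmic proteins, stood at 3748.8, 3852.6 and 3248.2 normalized counts in the wildtype libraries; the SFR KO libraries held 4044.9, 4427.4 and 4539.5. No wildtype library reached an SFR KO library, and the log2 difference was 0.26 ± 0.07 (limma adjusted p = 0.143; DESeq2 adjusted p = 0.0243). Ddx5 had a log2 difference of 0.17 ± 0.06 and Hnrnph1 one of 0.19 ± 0.06.

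Of 14 nonsense-mediated decay factors tested, 10 lay below 0 and 4 above it, where 49.3% of all genes lay above 0. Their median log2 difference was -0.09, against -0.003 over all genes, where the median size was 0.12. limma and edgeR called none, and 4 had an unadjusted p under 0.05 (all genes: 16.1%). DESeq2, which called 4.53% of the genes it tested, called Upf1, the central helicase of the pathway. Upf1 stood at 6183.0 ± 317.0 in wildtype and 5236.0 ± 506.3 in SFR KO, a log2 difference of -0.24 ± 0.07 (limma adjusted p = 0.162; DESeq2 adjusted p = 0.0456). Smg1 and Eif4a3 had log2 differences of -0.11 ± 0.06 and -0.05 ± 0.05.

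Heat shock and cold-inducible genes were included because CLK activity is known to follow temperature. Of 12 tested, 9 lay below 0 and 3 above it (all genes: 49.3% above), and the median log2 difference was -0.15. limma and edgeR called none, and 5 had an unadjusted p under 0.05 (all genes: 16.1%). The list mixes genes induced by cold and by heat, so nothing on temperature is read from its median. Named after their values were seen, the cold-inducible Cirbp and Rbm3 had log2 differences of 0.20 ± 0.11 and -0.025 ± 0.055. Also above 0 were Dnajb1 at 0.09 ± 0.06 and Hspa1a at 0.53 ± 0.41, the latter with a mean of only 15.62 normalized counts. The abundant chaperone genes Hsp90ab1, Hspa8 and Hsp90aa1 had log2 differences of -0.19 ± 0.07, -0.27 ± 0.10 and -0.19 ± 0.08. DESeq2 called 4: the first 2 of these with Dnaja1 and Hsph1. Hsph1, a chaperone gene named after its values were seen, had the smallest limma adjusted p of the list, 0.0555. Its values were 12592.6, 9276.6 and 11644.1 in the wildtype libraries and 7078.8, 8239.4 and 7220.9 in the SFR KO libraries, a log2 difference of -0.56 ± 0.11.

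**Figure D4:**
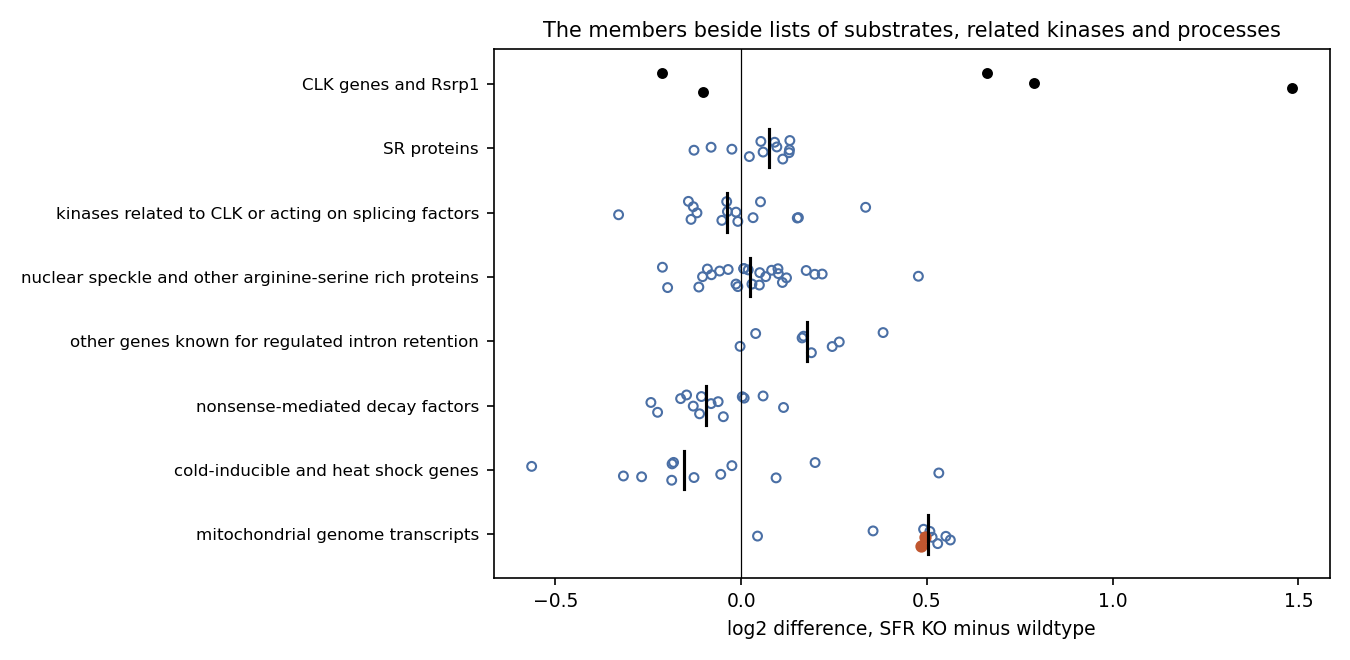
Log2 difference, SFR KO minus wildtype (horizontal axis), of the 5 genes (black points, not tested) and of the tested genes of 7 lists (open circles, filled orange where called by limma; vertical bars mark each list's median). Points are spread vertically only for visibility. Clk1, Clk4 and Rsrp1, which were chosen because they were higher in SFR KO, lie to the right of every SR protein. Nothing is read from that position. The 2 called genes are mitochondrial ribosomal RNAs.

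Other transcripts and cell type markers are given here beside Clk1, Clk4 and Rsrp1. Transcripts of the mitochondrial genome summed to 463562.1 to 660938.9 normalized counts in wildtype and 757380.0 to 761311.3 in SFR KO libraries. All 10 tested lay above 0 (all genes: 49.3%) with a median log2 difference of 0.50, and 0.305 with the GC trend removed. limma called mt-Rnr2 (0.50 ± 0.07, adjusted p = 0.0322) and mt-Rnr1 (0.49 ± 0.08, adjusted p = 0.0486), and neither with the GC trend removed. Neither was called once SFR KO 2, SFR KO 3, wildtype 1 or wildtype 3 was left out. Without wildtype 2 it called 8. In mt-Co1 the highest wildtype value, 270803.9, was in wildtype 2, where Clk1, Clk4 and Rsrp1 had their lowest wildtype values. A link between these values was not tested.

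Of 8 T cell markers 7 lay above 0 (all genes: 49.3%), with a median log2 difference of 0.68, and 3 had an unadjusted p under 0.05 (all genes: 16.1%). None of these markers was called by limma, edgeR or DESeq2 or at 0 in any library. Their sum was 326.0 to 720.0 in wildtype and 651.3 to 843.0 in SFR KO libraries. Plasma cell markers summed to 29585.5 to 30242.3 and to 32630.4 to 33227.0. Jchain held most of these sums, at 22566.4 ± 529.4 in wildtype and 25652.5 ± 925.8 in SFR KO. Of the 5 tested, 3 lay above 0 and 2 below, with a median log2 difference of 0.007. Of these, limma called 0 of 5, 3 had an unadjusted p under 0.05 (all genes: 16.1%), and DESeq2 called Jchain. Sums of the myeloid markers overlapped, at 1065.5 to 5148.9 and 894.4 to 2602.3, as did those of the red cell markers, at 1435.2 to 7885.9 and 1560.1 to 4225.2, and none of the 7 and 6 tested was called by limma, edgeR or DESeq2 or had an unadjusted p under 0.05. The part of these cells and transcripts in the values of Clk1, Clk4 and Rsrp1 was not tested.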

How the data were processed

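The authors deposited 1 table with a signal per gene and library, read counts normalized to library size, and its mean over libraries. The authors' deposited table adds, per gene, a log2 fold change and standard error, a score (the test statistic) and a p-value, raw and adjusted. The submitters' processing notes name GRCm38, DESeq2 1.14.1, featureCounts 1.5 and STAR 2.5; strand setting, annotation release and any filter: not given in the sources used here. Whole reads were recovered by dividing by each library's smallest value (100% of values whole within 1e-06). No per-sample column was left unmapped (0). Libraries of a group differed beyond sampling noise (lowest chi-square per gene 6.11), and all 6 were kept.

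Genes averaging at least 10 normalized counts were fitted with limma 3.58.1 (R 4.3.3, trend, two-sided) on log2(normalized count + 1), with genotype as factor, and called at a Benjamini-Hochberg adjusted p under 0.05 over 13562 genes. Differences on this scale understate the change of low genes. On the recovered reads, edgeR 4.0.16 called 30 and DESeq2 1.42.0 called 483 genes. The code was tested on simulated data. GENCODE M21 (GRCm38) gave positions, lengths and GC content for 99.7% of genes, and GC trends were removed with a natural spline of 4 degrees of freedom. Promoters are RefSeq's.

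The members and lists were chosen with earlier results of these data known. The text names the members, their neighbours, the 4 genes nearest in pattern to Clk1, Clk4 and Rsrp1, any SR protein, and per list up to 5 called genes or the most abundant up to 3; other names are marked in place. Of the genes this rule or the markers would name, 2 are not reported here.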

Additional observations from a re-analysis of the deposited data

How the results depend on the processing

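Of 216 comparisons of a result with an alternative, 180 stayed within the limits set for them and 36 moved. The log2 differences of the members all kept their direction. The other results are counts and ratios, which have no sign to change. The number of genes called, 63 with limma, was 129 with no filter, 98 with a minimum mean of 50, 30 with edgeR, 483 with DESeq2, 18 with the GC trend removed and 19 with the GC content of the longest coding transcript, the last added after seeing the data. Leaving out 1 library gave 11 to 480 calls, the highest without SFR KO 1 and the lowest without SFR KO 2; it was 13, 26 and 14 without wildtype 1, 2 and 3 and 21 without SFR KO 3. Upper quartile scaling turned the split of 21 higher and 42 lower into 37 higher and 30 lower. The Clk4 log2 difference was 0.53 with the GC trend removed. With DESeq2 the speckle list gave 2 calls, intron retention 3, decay factors 1 and heat shock genes 4, which also gave 1 with no filter. Leaving out 1 library gave 0 to 2 calls for intron retention (2 without SFR KO 1, 1 without wildtype 2) and 0 to 1 for heat shock genes (1 without either of these). Mitochondrial transcripts, 2 with limma, gave 1 with edgeR, 0 with either GC trend removed, and 0 to 8 with 1 library left out: 8 without wildtype 2, 3 without SFR KO 1 and 0 without any of the others. Over the longest coding transcript, also added after seeing the data, Clk1 over Clk2 was 1.66 in wildtype and 3.32 in SFR KO, and Clk1 over Clk3 was 1.13 and 2.11; over merged exons the latter was 0.848 and 1.57. For the ratios the cause is the length used; for the others the cause was not tested. No paired analysis was possible because replicate numbers follow accession order and carry no pairing. Counting error is small at 713 reads or more for each member in each library; with 3 libraries a group, the spread between libraries limits precision.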
